A study of Mus musculus with 32 samples.

Results

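Of 10250 3′ UTR intervals of mouse amygdala with enough sequenced T positions, 739 (7.21%) carried many more T-to-C conversions after injection of 4-thiouridine (4sU) than after injection of its solvent DMSO. Astrocyte transcripts (Gfap, Slc1a3, Aldoc), myelin transcripts (Mbp, Mal, Apod), immune transcripts (B2m, Fcer1g, H2-D1) and presynaptic transcripts (Snap25, Syn1, Syp) were among them. Of the measured immediate early genes 0 of 24 held a member, and of the glucocorticoid-responsive genes 0 of 19, against 7.22% of all measured genes. Lists this short can hold 0 members at that share. The members were chosen on these conversion rates, so every 4sU against DMSO value is a description and carries no test. An interval was kept when it had at least 20000 covered T positions summed over the 14 libraries of 4sU mice and at least 20000 over the 12 libraries of DMSO mice. Its conversion rate, the T-to-C conversions per 100 covered T positions, had to be at least 0.05 percentage points higher with 4sU, and under 0.06% with DMSO. The 739 intervals belong to 646 gene symbols at 671 separate places in the genome, out of 23996 intervals in all.

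All mice were wild type (WT), and both amygdalae were taken 24 h after a stereotaxic injection of 100 mM 4sU in DMSO or of DMSO alone. Their age is not given in the sources used here. The baseline groups held 5 4sU and 4 DMSO libraries, the acute stress groups 5 and 5, and the chronic stress groups 4 and 3. The RNA of all of them was alkylated, so that the DMSO libraries measure the conversion background of the same chemistry, and 3 auditory cortex libraries with 4sU and 3 without were counted per transcript only. The labels call replicates separate samples without tying each to 1 animal, so the p-values below speak only of the spread among samples, which may be technical.

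As background, 4sU is a uridine analogue that cells phosphorylate and build into RNA while it is available. Alkylated 4sU pairs with guanine during reverse transcription, so each incorporated base can be read as a T-to-C conversion. A transcript gains label by being made during the labelling period and loses it as it decays, and short-lived messages such as immediate early transcripts can lose it within hours. In these libraries, sequenced a day after injection, the conversion rate is a property of the RNA that was still present at collection. Sequences are not shown, because no genome of the mm10 build was used here.

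Each amygdala library held 6361216 to 9438303 reads on 3′ UTR intervals and 2.18e+08 to 3.48e+08 covered T positions. A set of 5 libraries stood apart in neuronal RNA: acute DMSO 1, 3 and 4, chronic 4sU 3 and chronic DMSO 1. The mean log2 CPM of 14 glutamatergic neuron markers was 3.40 to 4.93 in them, against 5.05 to 6.61 in the other libraries. That of 16 choroid plexus and ependymal markers ran from 0.56 to 5.15 among the acute DMSO libraries. In bulk tissue, fewer cells of a type and less RNA per cell cannot be told apart. Acute DMSO 2, outside this set of 5, differed most from its own group in reads. The chi-square per degree of freedom between its read counts and those of each other acute DMSO library was 40.1 to 55.1. For all other pairs of libraries within a group it was at most 24.9. A second division runs along the file headers, in which the baseline and acute 4sU libraries carry 1 series of numbers and the chronic 4sU and all DMSO libraries another. Covered T positions per read were 34.2 to 34.6 in the former and 36.7 to 37.4 in the latter, and the mean log2 CPM of 18 myelin markers was 7.52 to 8.04 and 8.52 to 9.51. Chronic against baseline 4sU mice, and baseline or acute 4sU against DMSO mice, cross this division, and the 2 cannot be told apart.

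Summed over the 739 intervals, the conversion rate of every 4sU library lay above that of every DMSO library. It was 0.125, 0.0773, 0.0986, 0.0982 and 0.0772% in the 5 baseline 4sU libraries, 0.138, 0.0976, 0.106, 0.0939 and 0.0765% in the acute, and 0.0914, 0.152, 0.116 and 0.174% in the chronic ones. The group means were 0.0952 ± 0.0197% (SD, n = 5) at baseline, 0.102 ± 0.0226% (SD, n = 5) after acute and 0.133 ± 0.0367% (SD, n = 4) after chronic stress. In DMSO mice they were 0.0281 ± 0.00298% (SD, n = 4), 0.0248 ± 0.00187% (SD, n = 5) and 0.0259 ± 0.00138% (SD, n = 3). The 3 4sU groups overlapped, since chronic 4sU library 1 lay among the baseline values. Intervals with the required coverage outside the set had group means of 0.0358, 0.0363 and 0.0442% with 4sU, and 0.0271, 0.0238 and 0.0246% with DMSO. The excess of a 4sU library over the DMSO mean was 4.83 to 9.34 times as large for the members as for the other intervals. Members took 19.3 to 23.9% of all covered T positions, with acute DMSO 2 highest and every other library at most at 21.4%. They took 35.0 to 45.7% of all conversions in 4sU libraries against 20.1 to 24.2% in DMSO libraries.

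**Figure D1:**
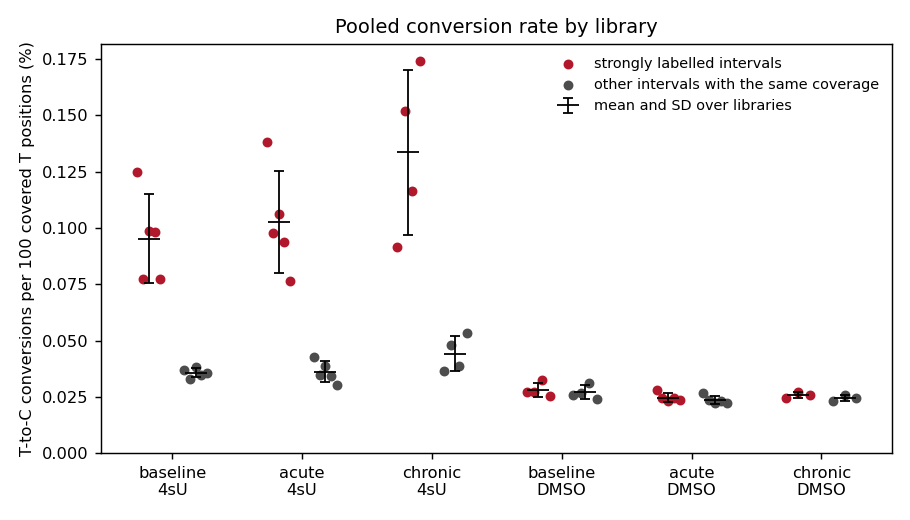
Conversion rate (T-to-C conversions per 100 covered T positions, y axis) in each of the 26 amygdala libraries, summed over the 739 members and over the other eligible intervals, by group on the x axis, with group mean and SD. The members' points in 4sU mice lie at 0.0765 to 0.174%, above all their DMSO points, and this separation follows from how the members were chosen.

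The deposited count of converted reads is the same contrast in another form. Of the members' reads, 2.13 to 3.99% were counted as converted in 4sU libraries and 0.861 to 1.15% in DMSO libraries, against 1.03 to 1.59% and 0.855 to 1.14% for the other intervals. The ratio of counted conversions to counted converted reads was 1.16 to 1.58 for members in 4sU libraries and 0.978 to 1.02 in DMSO libraries, and 1.02 to 1.27 for the other intervals in 4sU libraries. Since it falls below 1 in some libraries, the deposited columns do not count the same events, and the ratio is not the number of conversions in a read. Conversions in the same read are not independent, so the 95% Wilson intervals given below cover counting error only and may be too narrow.

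The excess over DMSO ranged up to 0.270 percentage points (Fcer1g), with a median of 0.0686. The rate with 4sU was up to 29.6 times that with DMSO, with a median of 3.80. For 727 members the 4sU interval lay wholly above the DMSO interval. Just inside the limit of 0.05 were Angptl2, a secreted angiopoietin-like protein (0.05014, from 14 and 2 conversions), Rfk, which makes flavin cofactors (0.05009, from 310 and 106), and Rragb, a GTPase of nutrient sensing at the lysosome (0.05009, from 180 and 75). Just outside were Reep3 (0.04997 percentage points), Cpne7 (0.04997) and Snx32 (0.04992). The excess of these 6 intervals differed by far less than its counting error.

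Members also differed in how evenly the libraries supported them. In 276 members all 14 4sU libraries had a higher rate than any of the 12 DMSO libraries, in 392 at least 12 did, and in 153 fewer than 7 did. Conversions per member in 4sU mice ran from 13 to 44294 with a median of 324, and 111 members had under 50. In 12 members 1 library gave more than 50% of the conversions, and the largest share of 1 library had a median of 16.5%. When each of the 26 libraries was left out in turn, single omissions kept 598 to 723 of the members. The same 500 members stayed in the set under every omission. Chronic 4sU library 4 was the largest contributor for 320 members and chronic 4sU library 2 for 128. Taken against all DMSO libraries, the median excess of the members was 0.0581 percentage points at baseline, 0.0610 after acute and 0.0949 after chronic stress. It reached 0.05 in 474, 502 and 697 members, and in 350 in all 3 states.

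The member with the highest excess among those with over 1000 conversions was Scd1, the stearoyl-CoA desaturase that makes monounsaturated fatty acids (chromosome 19, 44394450 to 44397917 in mm10). Its baseline 4sU libraries had rates of 0.373, 0.168, 0.202, 0.287 and 0.157%, the acute ones 0.330, 0.214, 0.308, 0.210 and 0.151%, and the chronic ones 0.183, 0.366, 0.259 and 0.406%. The 12 DMSO libraries lay between 0.0148 and 0.0285%, so no 4sU library came near them. Pooled, this was 5450 conversions and 0.262% (0.255 to 0.269%) with 4sU and 510 conversions and 0.0219% (0.0201 to 0.0239%) with DMSO. Its paralog Scd2, also abundant in brain, stood at 0.119% and 0.0228%.

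Gfap, the intermediate filament of astrocytes (chromosome 11, 102887336 to 102888675), had 0.257, 0.181, 0.215, 0.181 and 0.145% in the baseline, 0.337, 0.215, 0.197, 0.204 and 0.163% in the acute and 0.157, 0.307, 0.206 and 0.363% in the chronic 4sU libraries. Its DMSO rates were 0.0170 to 0.0346%, well below all 14. In Scd1 and Gfap alike baseline library 1, acute library 1 and chronic library 4 were the highest of their groups, as for the rate summed over all members.

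Immune transcripts held the top of the list with fewer conversions. Fcer1g, the signalling chain of Fc receptors in microglia (chromosome 1, 171229572 to 171229863), had 79 conversions at 0.311% with 4sU and 12 at 0.0404% with DMSO. One chronic 4sU library had 0 conversions and 1 baseline DMSO library had 0.176%, so its groups overlapped. B2m, the light chain of MHC class I (chromosome 2, 122152651 to 122153081), had 327 conversions at 0.281% (0.252 to 0.313%) against 57 at 0.0251% (0.0194 to 0.0325%), and its 14 4sU libraries ran from 0.0378 to 0.429%, above the DMSO range of 0.00613 to 0.0354%. H2-D1, an MHC class I heavy chain (chromosome 17, 35266871 to 35267496), stood at 0.219% against 0.0385%, and Serpina3n, a protease inhibitor of reactive astrocytes (chromosome 12, 104413607 to 104414328), at 0.221% against 0.0358%. H2-D1 has near-identical paralogs, so reads may be shared among them.

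Apod, a lipid carrier made by oligodendrocytes and perivascular cells (chromosome 16, 31296192 to 31297339), had 0.282% against 0.0319%, and Acsbg1, an acyl-CoA synthetase of glia (chromosome 9, 54604997 to 54605389), 0.207% against 0.0270%. Of the 12 highest, 3 more rested on under 100 conversions each. Hspb6, a small heat shock protein, had 0.256% against 0.0150%, Spp1 (osteopontin) 0.263% against 0.0231% and Ric3, a chaperone of nicotinic receptors, 0.229% against 0.00776%. In Hspb6 chronic 4sU library 3 gave 26 conversions with 7 reads counted as converted, and in Spp1 acute 4sU library 1 gave 20 with 7. Ric3 was at 0% in 5 of the 14 4sU libraries. These 3 rates rest on few reads.

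The most deeply covered members show the labelled level of major brain transcripts with small counting error. Mbp, the myelin basic protein, had 44294 conversions at 0.161% (0.159 to 0.162%) with 4sU and 8661 at 0.0258% (0.0253 to 0.0264%) with DMSO. Its 4sU libraries ran from 0.0993 to 0.241% and its DMSO libraries from 0.0232 to 0.0332%. Slc1a2, the main astrocyte glutamate transporter, had 0.102% against 0.0233%, and Camk2a, a kinase of excitatory synapses, 0.100% against 0.0322%. Arf3, a GTPase of the Golgi, stood at 0.102% against 0.0313% and Ndrg4 at 0.0874% against 0.0269%. Of these 5 abundant transcripts the glial Mbp had the highest rate and Ndrg4 the lowest.

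By cell type, members were most frequent among astrocyte markers. Of the astrocyte markers with the required coverage 8 of 14 (57.1%) held a member interval, including Gfap, Slc1a3, Aldoc, Ntsr2, Sparcl1, Slc1a2 and Clu. Among oligodendrocyte and myelin markers it was 7 of 17 (41.2%), including Apod, Mal, Mbp, Cldn11, Mobp and Mag. Microglia markers gave 3 of 9 (Ctss, Itgam, Csf1r), glutamatergic neuron markers 4 of 12 (Cck, Slc17a7, Camk2a, Slc17a6) and GABAergic neuron markers 6 of 20 (Vip, Pvalb, Gad1, Sst and Calb2 among them). Of 12 endothelial and pericyte markers 0 were members, of 11 choroid plexus and ependymal markers 1 (Igf2), and of 10 oligodendrocyte precursor markers 2. Over all genes with the required coverage the share was 646 of 8948 (7.22%). The median excess over all measured genes of a list was 0.0737 percentage points for astrocyte, 0.0476 for microglia, 0.0417 for myelin and 0.00391 for endothelial markers, against 0.00622 for all genes. Coverage differed among these lists too. Its median over the 4sU libraries was 1092138 covered T positions for astrocyte and 790915 for myelin markers. It was 58079 for microglia and 67599 for endothelial markers, against 145981 for all genes. Members were most frequent in the deepest coverage class, as given below, and the part of coverage in these shares was not tested.

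Within the astrocyte list, Slc1a3, a glutamate transporter (chromosome 15, 8634124 to 8636130), had rates of 0.107 to 0.243% over the 14 4sU libraries and 0.0170 to 0.0274% over the DMSO libraries. Aldoc, the brain aldolase (chromosome 11, 78326355 to 78327777), had 0.0863 to 0.251% against 0.0251 to 0.0489%. Both lay apart from DMSO in every library.

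**Figure D2:**
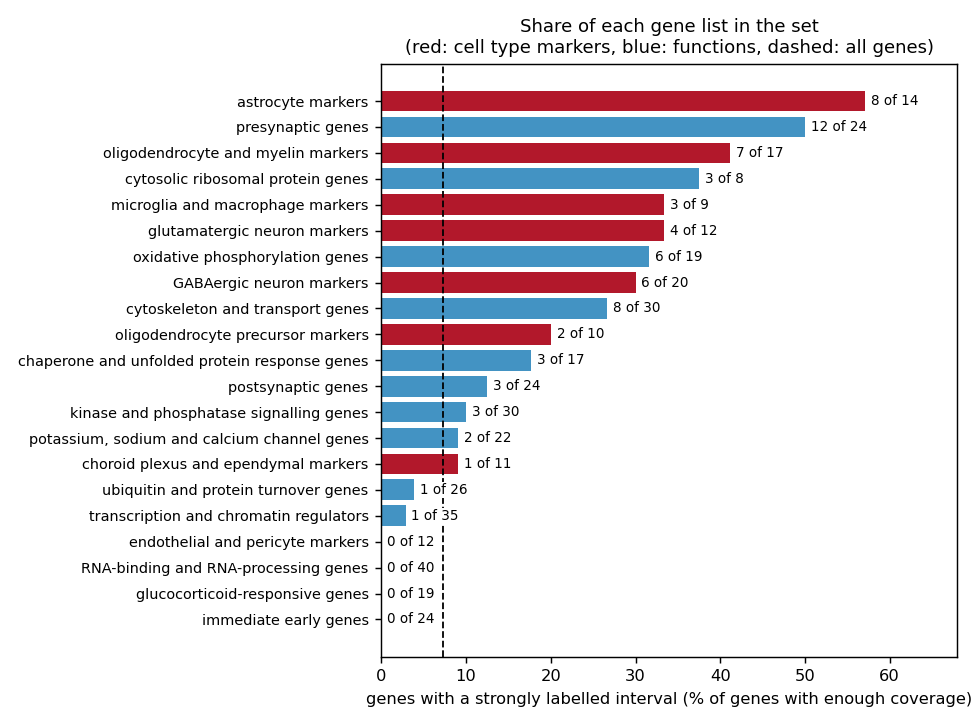
Share of the genes with enough coverage that held a member interval (x axis, percent) for each gene list (y axis), with the number of member genes and of measured genes beside each bar, and a dashed line at the 7.22% of all genes. Astrocyte markers (57.1%) and presynaptic genes (50%) have the longest bars, and 4 lists have none.

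Genes of the presynaptic terminal gave 12 members of 24 measured (50%), among them the SNARE proteins Snap25 and Vamp2, the vesicle proteins Syn1, Syn2, Syp, Sv2a and Syt1, the vesicle GTPase Rab3a, the fusion regulators Cplx1 and Cplx2, and the SNARE recycling ATPase Nsf. Postsynaptic genes gave 3 of 24 (12.5%), namely the receptor subunit Gria4, Camk2a and the scaffold Dlg4. The median excess was 0.0496 percentage points over the presynaptic and 0.00726 over the postsynaptic genes. Median coverage differed too, at 1577481 and 817330 covered T positions over the 4sU libraries. Over all eligible intervals, 7.43% were members from 200000 to under 1000000 covered T positions and 26.2% at 1000000 or more. Whether the lists differ beyond coverage was not tested. Snap25 (chromosome 2, 136781144 to 136782427) had 0.101 to 0.190% in 4sU libraries and 0.0226 to 0.0384% in DMSO libraries, and Syp (chromosome X, 7651837 to 7653255) 0.0675 to 0.166% and 0.0237 to 0.0319%. Neither overlapped. Syn1 did not overlap either, with 0.0675 to 0.196% against 0.0156 to 0.0449%, though the interval lies opposite Araf on the other strand and the strand setting of the counting is not given in the sources used here.

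The shares of the other functional lists ran from 0 to 37.5%. Oxidative phosphorylation genes gave 6 of 19, cytosolic ribosomal protein genes 3 of 8 (Rps6, Rpl23 and Rpl15, which have processed pseudogenes that could take some of their reads), cytoskeleton and transport genes 8 of 30, chaperones 3 of 17, kinases and phosphatases 3 of 30 and ion channels 2 of 22. Ubiquitin and protein turnover genes gave 1 of 26 (Trim37) and transcription and chromatin regulators 1 of 35 (Cux1). Among 24 immediate early genes, 19 glucocorticoid-responsive genes and 40 RNA-binding genes 0 were members. Their median excess was 0.000802, 0.000788 and 0.00334 percentage points, so the first pair of lists lay close to the DMSO level. RNA-binding genes were deeply covered, with a median of 647811 covered T positions, while immediate early genes had 85660 and all genes 145981.

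Gene families were also grouped by symbol after the values had been seen, so their counts are a description only. Lysosome and vesicle acidification genes were frequent, with 8 of 11 lysosomal membrane and lipid-handling genes, 9 of 17 subunits of the vacuolar proton pump and 5 of 9 cathepsins. So were 14-3-3 proteins (5 of 6), Na,K-ATPase subunits (4 of 6), MHC class I genes with B2m (3 of 5), tetraspanins (8 of 18) and selenoproteins (5 of 11). Imprinted genes gave 10 of 23. Low counts were 1 of 218 Zfp zinc finger genes (Zfp367) and 1 of 27 Kmt, Kdm and Setd genes (Setd7). Ubiquitin-specific proteases gave 0 of 42, Ankrd genes 0 of 26, protocadherins 0 of 21 and kinesins 0 of 18. The share of all genes was 646 of 8948 (7.22%), and apart from the Zfp genes these families are small. Whether their counts lie below that share was not tested. The median excess was 0.0124 percentage points for protocadherins and 0.0132 for kinesins, above the 0.00622 of all genes.

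Some genes entered the set several times. There were 68 symbols with more than 1 member interval, led by Gnas, the stimulatory G protein alpha subunit and an imprinted gene, with 11, and Snurf with 8. The Gnas intervals lie between 174334212 and 174346741 on chromosome 2, some of them overlapping, and the shortest is 39 bases long. The Snurf intervals lie on chromosome 7 and also overlap Snrpn and Snhg14 on the same strand, so their reads cannot be given to 1 gene. In all 16 members overlapped another gene on the same strand and 47 (6.36%) on the opposite strand, against 8.48% of all eligible intervals on the opposite strand. The gene models of the deposited exon tables covered 738 of the 739 members in full.

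Members were shorter and more deeply covered than the rest. Their median length was 1047 bases against 1649 for the other eligible intervals. Of intervals under 500 bases 17.1% (145 of 848) were members, of those from 500 to under 1000 bases 9.88%, from 1000 to under 2000 bases 7.03%, from 2000 to under 4000 bases 4.33%, and of 4000 bases or more 2.37% (25 of 1054). By covered T positions over the 4sU libraries the share was 5.63% from 20000 to under 50000, 4.35% from there to under 200000, 7.43% to under 1000000 and 26.2% (192 of 733) at 1000000 or more, so it was low and uneven below the deepest class. The median level in DMSO libraries was 99.9 CPM for members and 39.9 CPM for the others. T content was close, with medians of 28.7 and 29.5 T per 100 bases. The separate parts of length, coverage and level were not tested.

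**Figure D3:**
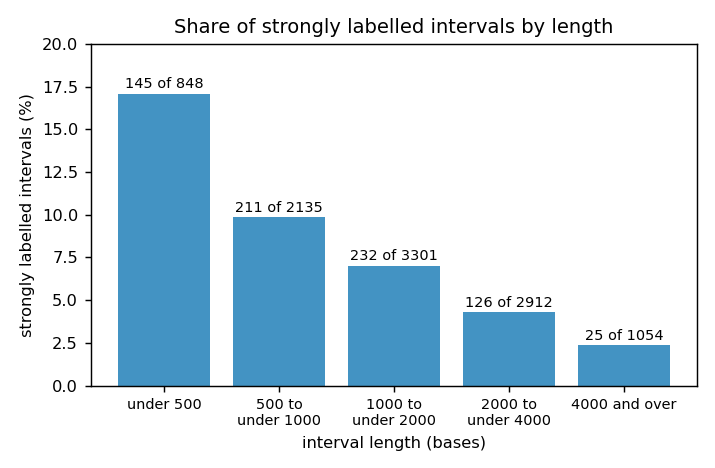
Share of eligible 3′ UTR intervals that were members (y axis, percent) by interval length in bases (x axis, 5 classes), with the numbers of members and of eligible intervals above each bar. The share goes from 17.1% under 500 bases to 2.37% at 4000 bases or more.

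By chromosome, 48 of the 339 measured X-linked genes (14.2%) held a member, the highest share of any chromosome with over 10 measured genes. They include Gpm6b, Tmem47, Syp and Syn1. Chromosome 7 had 9.47% and chromosome 4 had 4.57%, the lowest.

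Acute stress was compared with baseline within 4sU mice to ask whether the labelled share of a transcript moves with a short stressor. No member and no other interval passed the test. The rule summed conversions over all 14 4sU libraries, so an interval could enter the set through the rates of 1 state, and in this and the next comparison nothing is read from the members' share of calls against that of all intervals. Conversions were tested with edgeR's quasi-likelihood test on all 9711 intervals with a mean of at least 2000 covered T positions, with libraries rescaled to a common overall rate. With Benjamini-Hochberg adjustment 0 intervals (0%) had an adjusted p under 0.05, among them 0 of the 699 members tested. At an unadjusted p under 0.05 there were 564 intervals and 59 members, and DESeq2 called 0. The members' median log2 difference was 0.04. Power was low in simulated data of this design: 3% of intervals changed 1.5-fold and 16% of those changed 2-fold were recovered. The simulation set the dispersion, the spread between libraries beyond counting error, to 0.02 for every interval. That value was assumed and not estimated, so the power in the real libraries was not measured.

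Chronic stress against baseline in 4sU mice gave 23 called intervals of 9711 (0.237%), and 6 of the 699 members tested (0.858%). Of all intervals 11 were higher (0.113%), and 4 of these were members. Higher were Cldn11 and Mal, both proteins of compact myelin, Tmem47, a junction protein, and Atp6v1h, a proton pump subunit. Lower were Lrrc58 and Gpm6b, a membrane glycoprotein of neurons and glia. This contrast crosses the division of header numbers described above, so state and division cannot be told apart. The overall rate was 0.0478 ± 0.00499% (SD, n = 5) at baseline and 0.0627 ± 0.0135% (SD, n = 4) after chronic stress, and the test compares each interval with that shift.

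Mal, a myelin proteolipid (chromosome 2, 127633226 to 127634978), had 0.133, 0.0685, 0.107, 0.131 and 0.0887% in the baseline 4sU libraries, 0.152, 0.0910, 0.133, 0.0889 and 0.0709% in the acute and 0.181, 0.241, 0.186 and 0.341% in the chronic ones. The chronic values lay above every baseline and acute value, and DMSO libraries had 0.0180 to 0.0320%. Relative to the overall rate the log2 difference was 0.78 ± 0.14 (SE, edgeR adjusted p = 0.00016). Cldn11, the tight junction protein of myelin (chromosome 3, 31163309 to 31164325), had 0.0262, 0.0186, 0.0440, 0.0759 and 0.0355% at baseline, 0.0709, 0.0724, 0.0767, 0.0479 and 0.0387% after acute and 0.112, 0.143, 0.0947 and 0.203% after chronic stress. Its DMSO libraries had 0.0162 to 0.0422%, so at baseline 3 of 5 4sU libraries lay inside the DMSO range. Its excess over DMSO was 0.0152 percentage points at baseline, 0.0362 after acute and 0.111 after chronic stress, so it reached the limit of 0.05 in the chronic state alone, and its place in the set and its chronic difference draw on the same values. In the fit over all 9711 intervals the log2 difference was 1.36 ± 0.24 (edgeR adjusted p = 5.0e-05). Both stayed called without any 1 of the 9 libraries compared, and when the chronic difference among DMSO mice was subtracted (Cldn11 1.53, Mal 1.01, edgeR adjusted p = 0.013 for each). The reads of both genes also moved across the division, as given below, and whether this bears on their rates was not tested.

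Lrrc58, a leucine-rich repeat protein (chromosome 16, 37881463 to 37888856), went the other way. It had 0.124, 0.128, 0.0570, 0.194 and 0.185% at baseline, 0.157, 0.120, 0.180, 0.114 and 0.155% after acute and 0.0534, 0.0705, 0.0637 and 0.0916% after chronic stress. All but 1 baseline value lay above the chronic values, and the log2 difference was -1.39 ± 0.17 (edgeR adjusted p = 1.7e-11). Among DMSO libraries acute DMSO 3 had 0.222%, higher than every 4sU library, from 322 conversions with 322 reads counted as converted, while the other DMSO libraries had 0.0209 to 0.0524%. With the DMSO difference subtracted the call was lost (-1.25, adjusted p = 0.86), and without rescaling libraries too (-0.98, adjusted p = 0.065).

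The other 3 calls were less firm. Tmem47 was higher by 0.86 ± 0.20 (edgeR adjusted p = 0.015), Atp6v1h by 2.91 ± 0.75 (adjusted p = 0.044) and Gpm6b lower, at -0.47 ± 0.12 (adjusted p = 0.048). The calls were lost without 6, 5 and 8 of the 9 libraries, one at a time. In Atp6v1h chronic 4sU library 3 gave 40 conversions with 16 reads counted as converted, and 3 baseline 4sU libraries had 0%. For Gpm6b the unscaled difference was -0.07, with 0.222, 0.153, 0.174, 0.204 and 0.175% at baseline and 0.124, 0.211, 0.149 and 0.222% after chronic stress, which overlap. Without chronic 4sU library 2 or 3 the number of members called fell to 3.

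**Figure D4:**
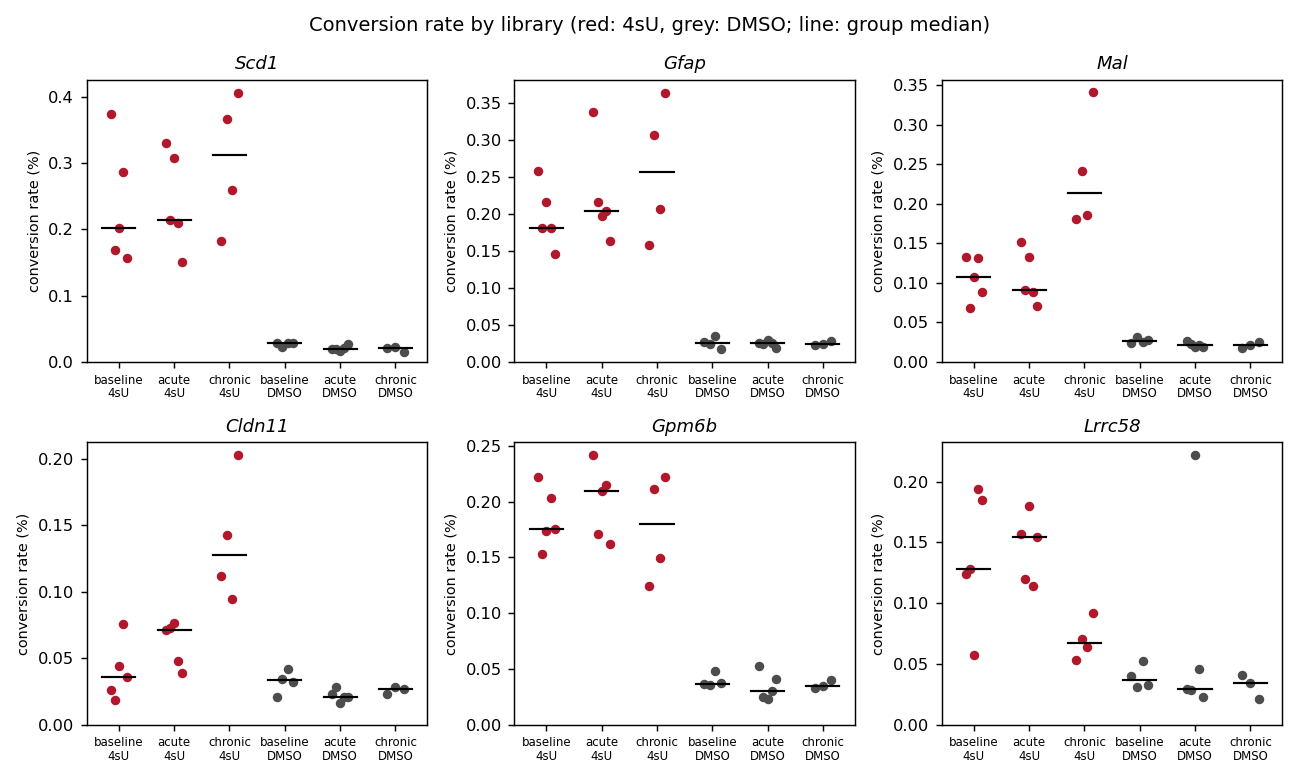
Conversion rate (percent, y axis of each panel) of 6 members in each library, by group on the x axis, 4sU in colour and DMSO in grey, with a line at the group median. Scd1 and Gfap lie above DMSO in all 14 4sU libraries, Mal and Cldn11 are highest after chronic stress, and Lrrc58 has 1 DMSO library at 0.222%.

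Read levels, which the choice of members used only as minimum coverage summed over the states, were compared between states next. After acute stress, averaged over both injections, 22 of 739 members (2.98%) passed edgeR's quasi-likelihood test, 21 higher and 1 lower (Col6a1, a collagen, -0.33). Over all 15713 intervals tested 253 passed (1.61%), 169 of them higher (1.08%). Myelin transcripts led: of the 7 myelin list members 5 were higher, with a median log2 difference of 0.40 over the 7, while of 9 astrocyte list intervals 0 passed (median 0.02). Among them the differences were 0.40 ± 0.09 for Mal (SE, edgeR adjusted p = 0.0092), 0.40 ± 0.09 for Cldn11 (adjusted p = 0.011), 0.34 ± 0.08 for Mbp (adjusted p = 0.029) and 0.47 ± 0.12 for Mobp (adjusted p = 0.039). Other oligodendrocyte transcripts were Sirt2, a deacetylase (0.23 ± 0.05), and Bcas1, of newly forming oligodendrocytes (0.39 ± 0.10). Cadm4, a glial adhesion protein, had the smallest adjusted p (0.27 ± 0.05, edgeR adjusted p = 0.0056). Higher neuronal transcripts were the potassium channel subunit Kcng4 (0.71 ± 0.17), the neurofilament Nefh (0.40 ± 0.10) and the release proteins Vamp1 (0.31 ± 0.08) and Cplx1 (0.21 ± 0.06). These were single genes: of the presynaptic list intervals 1 of 13 passed, with a median log2 difference of 0.02. Glutamatergic markers gave 0 of 5 (median -0.09) and GABAergic markers 0 of 6 (median 0.13).

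Split by injection, the values behind this average were as follows. Mal had 1172, 1288, 1149 and 1060 CPM in the baseline and 1598, 1783, 2394, 1900 and 1492 CPM in the acute DMSO libraries, which do not overlap. In 4sU mice it had 414, 530, 581, 470.1 and 537 CPM at baseline and 622, 654, 501, 525 and 513 CPM after acute stress, which do. In DMSO mice alone 27 members passed (25 higher, 2 lower, with 1.45% of all intervals called), and in 4sU mice alone 0 (0.223% of all called). The difference between the injections was itself called in 0 intervals (0%, 815 at an unadjusted p under 0.05), so the acute effect is not shown to differ between them. Myelin marker levels were 8.52 to 8.88 (mean log2 CPM) in baseline and 8.79 to 9.51 in acute DMSO libraries, where glutamatergic markers ranged from 3.40 to 6.13, and their part in the result was not tested. Without the 5 libraries low in glutamatergic markers, 53 members passed (51 higher, 2 lower), and 9 differed between injections. That fit kept only libraries 2 and 5 of the acute DMSO group, and library 2 differed most from its group in reads. These counts are therefore not firmer than those of the main fit. Calls rose over all intervals too: of 15866 tested in that fit 317 were higher and 209 lower, and 87 differed between injections. The rise is thus not particular to the members. The count of 22 turned on single libraries: it was 6 to 13 without baseline 4sU 1, 4 or 5, baseline DMSO 1, 3 or 4, acute 4sU 1, 2 or 5, or acute DMSO 3 or 4, and 37 to 40 without acute DMSO 1, 2 or 5. Calls over all intervals also fell in the former fits and rose in the latter. Mal, Cldn11, Sirt2, Dbndd2 and Cadm4 stayed called without any 1 library.

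Chronic stress against baseline in DMSO mice, which lie on the same side of the division, gave 0 called intervals of 15713 (0%) with edgeR and 0 with DESeq2. At an unadjusted p under 0.05 there were 386 intervals, 13 of them members. That fit shared its spread with all 6 groups, among them the uneven acute DMSO libraries. With the compared groups fitted alone, 920 of 14923 intervals had such a p, 58 of them members, and 0 were called. How small a difference 4 baseline and 3 chronic libraries can show was not tested, so a chronic effect is not excluded. The myelin list had a median log2 difference of 0.06, the astrocyte list 0.01 and the presynaptic list 0.04. Mal had 1368, 1034 and 1032 CPM after chronic stress, which overlap the 1060 to 1288 CPM of the baseline DMSO libraries.

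In 4sU mice, where chronic and baseline libraries lie on either side of the division, 469 members passed (63.5%), 279 higher and 190 lower. Over all intervals 7349 passed (46.8%), 3844 of them higher (24.5%), and state and division cannot be told apart. Myelin members were higher in 7 of 7, astrocyte list intervals higher in 3 and lower in 2 of 9, and presynaptic ones lower in 6 of 13. Cldn11 had 130, 156, 192, 155 and 139 CPM in the baseline and 758, 647, 630 and 593 CPM in the chronic 4sU libraries, but 463, 505, 447 and 471 CPM in the baseline DMSO libraries. The log2 difference was 2.09 ± 0.13. For Cldn11 the baseline DMSO libraries thus lay nearer to the chronic than to the baseline 4sU libraries. Mal was higher by 1.72 ± 0.13.

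Of the 11 Gnas intervals 10 were lower and 1 higher. The one of 72 bases from 174334212 had the most negative difference of all members, with 195, 201, 175, 196 and 183 CPM in the baseline and 74.8, 69.1, 58.7 and 52.3 CPM in the chronic 4sU libraries (log2 difference -1.58 ± 0.08). Its baseline DMSO libraries had 70.0, 63.6, 70.2 and 63.2 CPM, near the chronic 4sU values. Ccnh, a cyclin of transcription initiation, was higher by 1.42, Ndfip1, an adaptor of ubiquitin ligases, by 1.21 and Bnip3, a mitophagy receptor, by 1.21. The chronic effect differed between the injections in 4067 intervals (25.9%), 295 of them members.

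**Figure D5:**
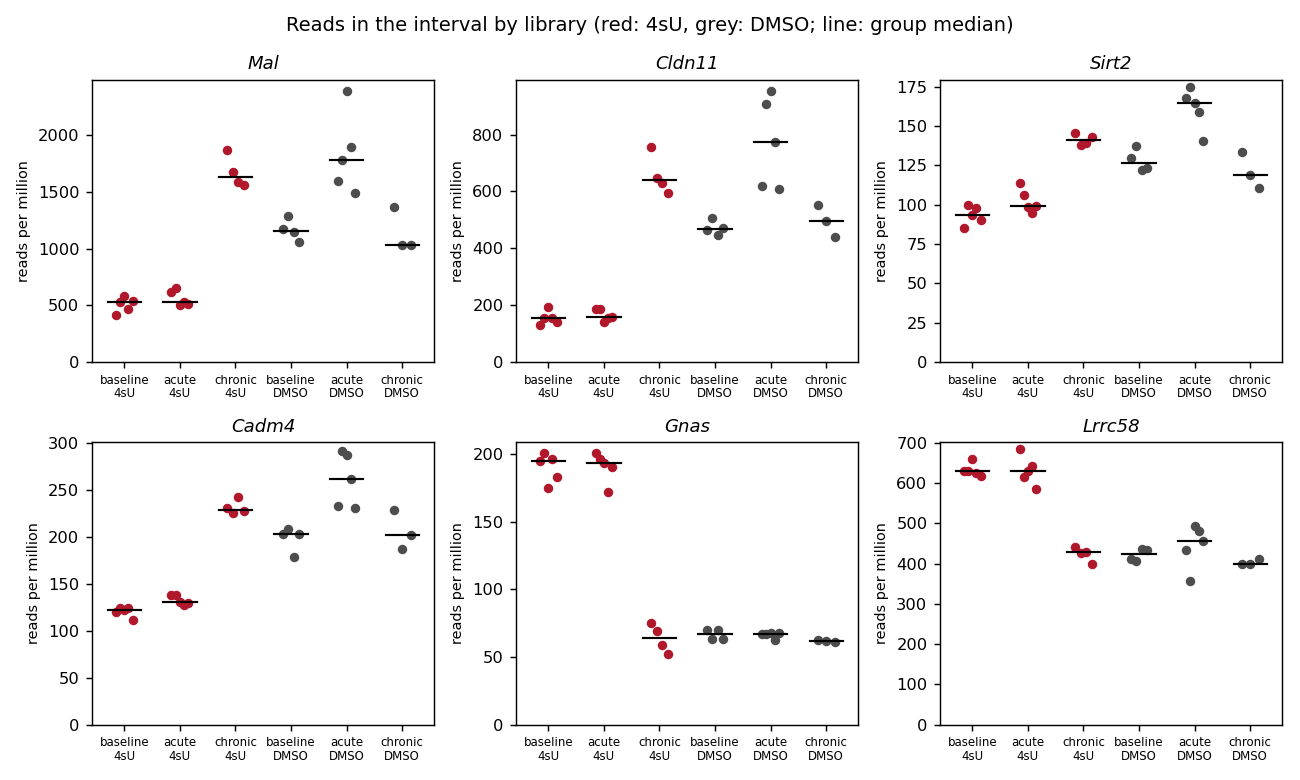
Depth-scaled reads (CPM, y axis of each panel) of 6 member intervals in each library, by group on the x axis, 4sU in colour and DMSO in grey, with a line at the group median. Mal and Cldn11 are lowest in baseline and acute 4sU libraries, and the 72-base Gnas interval is highest there (172 to 201 CPM).

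In auditory cortex the labelled libraries were compared with the unlabelled ones by counts per gene, since conversions were not analysed there. Of 10627 genes tested 0 passed (0%), and of the 497 member genes among them 0, with 441 genes and 29 member genes at an unadjusted p under 0.05. DESeq2 called 7 genes, 3 of them member genes, all higher with 4sU. The 6 libraries held 9702616 to 13539231 counts each. How small a difference 3 libraries a group can show was not tested.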

How the data were processed

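Amygdala conversion tables, one for each of 26 libraries, list RefSeq 3′ UTR intervals with whole counts of T-to-C conversions, of the T positions read, of reads and of converted reads, and come from slamdunk 0.4.3, per the file headers. The deposited conversion rate is a fraction (conversions divided by covered T positions). The authors' CPM column scales an interval's reads by the library total, per the file headers. Exon counts per gene for amygdala and counts per transcript for 6 auditory cortex libraries were deposited too. Cutadapt 3.1, HISAT2 2.1.0, SAMtools 1.9, featureCounts 2.0.1 and the mm10 build appear in the submitters' processing notes. RNA was extracted with Trizol and prepared with the VAHTS Universal V8 kit, per the labels' protocols. The settings for base quality, variants, multiple matches and strand were not given in the sources used here. Overlapping and paralogous genes are uncertain for that reason.

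Rates were recomputed from the counts and printed in percent. All sample columns were matched, and 0 were left unmatched. For conversions the test was edgeR 4.0.16's quasi-likelihood F test under R 4.3.3 (robust, log of covered T positions times the library's overall rate as offset, 1 coefficient per group, 14 4sU libraries). Reads were tested with TMM scaling and filterByExpr over 26 libraries. P-values are two-sided and adjusted over all intervals tested. A symbol was given for 23894 of the 23996 intervals, and the rest stayed in the fits as intervals. Cortex transcripts (90350 of 142552, with 79.8% of counts) were given to genes by position. DESeq2 1.42.0, other offsets, filters, a replicate block, single injections and each library left out were alternatives. The tests were run on simulated data first. For reads after acute stress 66% of intervals changed 1.5-fold and 96% changed 2-fold were recovered. Those data had an assumed dispersion of 0.03 in every interval and library. The real libraries differed more unevenly, so these shares are not their power. Python 3.11.15, pandas 2.3.3, numpy 2.4.6 and matplotlib 3.10.9 were used.

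The members, the gene lists and the tests were chosen with earlier results of these data known. Named members are the 12 with the largest excess, the 8 with the most coverage, 3 on either side of the limit, up to 8 called per comparison by smallest p and up to 3 per list, without predicted symbols. A few members that this rule or a list names are not reported here. Others, and the symbol families and the 5 libraries low in glutamatergic markers, were chosen after values were seen.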

Additional observations from a re-analysis of the deposited data

Results flagged for a closer look

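Libraries far from the rest of their group were looked for in 100 groups of rates, and 13 were found. The limit used is set to mark about 1 group in 20 by chance, and its rate among members with few conversions was not tested. Summed over the members, acute DMSO library 1 had 0.0280%, the highest of its group, and so had Serpina3n (0.0691%) in the same library.

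Shallow members gave most of the others. In Ric3 it was baseline 4sU library 1 (0.638%), baseline DMSO library 3 (0.0576%) and acute DMSO library 5 (0.0287%). In Hspb6 it was chronic 4sU library 3 (1.52%), in Spp1 acute 4sU library 1 (1.65%), in Fcer1g baseline DMSO library 2 (0.176%) and in Atp6v1h baseline DMSO library 4 (0.0499%). Among better covered members they were Scd1 in baseline DMSO library 2 (0.0218%, low), Gpm6b in baseline DMSO library 3 (0.0482%), Tmem47 in baseline DMSO library 4 (0.0156%, low) and Lrrc58 in acute DMSO library 3 (0.222%).

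The chronic effect on the conversion rate differed between 4sU and DMSO mice for Cldn11 (log2 1.53) and Mal (log2 1.01), by edgeR's test of the difference (adjusted p = 0.013 for each). The choice of members drew on the same conversions, and Cldn11 reached the limit in the chronic state alone. Among 4sU mice the chronic effect also crosses the division of header numbers. For reads, the chronic effect differed between the injections in 295 members by the same kind of test, among 4067 of all 15713 intervals (25.9%). Here too the 4sU side crosses the division of header numbers.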

How the results depend on the processing

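The set held 518 to 1055 members under the other limits and 612 to 787 without 1 library, against 739. Members called for chronic conversion were 6, but 2 after subtracting the DMSO effect, 10 with covered T positions alone as offset, 3 with the replicate block, 3 once the 5 libraries with low glutamatergic markers are dropped, and 3 to 6 with 1 library left out. Members called for acute reads were 22, but 39 by exon counts per gene, 8 with the groups fitted alone, 9 with no filter, 53 once those 5 libraries are dropped (9 then differed between the injections), and 6 to 40 with 1 library left out. In each of these settings the calls for acute reads over all intervals or genes moved the same way as the members' calls. With the 5 libraries low in glutamatergic markers dropped, the acute DMSO group held only libraries 2 and 5. In cortex 0 member genes were called, but 3 by DESeq2, 6 with no filter (48 of all genes) and 0 to 1 with 1 library left out. The cause of these shifts was not tested. By exon counts per gene the chronic 4sU difference in reads turned to -0.0468 for Rps6, -0.3376 for Nefl, 0.5362 for Lrrc58 and -0.0677 for Cadm4, where counts cover all exons of a gene. Between baseline and a stress state of the same injection, the deviations of same-numbered libraries from their group means had correlations of -0.114 to 0.117. Same-numbered 4sU and DMSO libraries were not compared in this way, so whether they share more than a number was not tested. The replicate block left 15 members called for acute reads. Members with under 50 conversions limit what depth can show.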
